A study of Mus musculus with 9 samples.

Results

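The 10 genes described here encode the machinery that makes and loads peptides for major histocompatibility complex (MHC) class I: B2m, H2-D1, H2-K1, Tap1, Tap2, Tapbp, Psmb8, Psmb9, Psme1 and Psme2. They were taken by gene symbol and not by a cut on measured values, but earlier results of these data were known when they were chosen. All 10 were among the 27998 genes of the count tables. The retinal immune cells were those of female mice of genotype Arr1-/-, in which the visual arrestin gene is knocked out and photoreceptors degenerate under light. All groups carried this knockout, and no wild-type libraries were analysed here. The mice were 2 to 5 months old and were born and kept in darkness. The day 0 group stayed in darkness, and the day 7 and day 20 groups were kept in constant room light of about 200 lux for 7 and 20 days. Retinas were dissociated, living CD45+ CD11b+ cells were sorted, and transcripts were counted from their 3′ ends as unique molecular identifiers (UMIs), each marking one captured transcript molecule, by droplet sequencing. Each day had 3 libraries, drawn from 4 mice (8 retinas) per day. The labels do not tie libraries to mice, so p-values measure only the spread between libraries, which may be technical.

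Class I molecules stand on the surface of almost every nucleated cell and show peptides of that cell's own proteins to CD8 T cells. The proteasome cuts proteins into peptides, the TAP transporter carries the peptides into the endoplasmic reticulum, and there they are loaded onto a heavy chain paired with β2-microglobulin. Interferons are known inducers of the whole pathway, including the immunoproteasome subunits that replace those of the standard proteasome. In the healthy retina class I is low on neurons, and microglia, the resident macrophages, carry more of it.

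The light chain β2-microglobulin is encoded by B2m (ENSMUSG00000060802) at chr2:122147686-122153083 on the plus strand (mm10, GENCODE M21). The heavy chains H2-K1 (ENSMUSG00000061232, chr17:33996017-34000347, minus strand) and H2-D1 (ENSMUSG00000073411, chr17:35262730-35267499, plus strand) lie at opposite ends of the MHC region. Between them lie Psmb9 (ENSMUSG00000096727, chr17:34181987-34187764, minus strand), Tap1 (ENSMUSG00000037321, chr17:34187553-34197225, plus strand), Psmb8 (ENSMUSG00000024338, chr17:34197721-34201454, plus strand) and Tap2 (ENSMUSG00000024339, chr17:34203527-34216321, plus strand). Tapbp (ENSMUSG00000024308) lies on the other side of H2-K1, at chr17:33915899-33929292 on the plus strand. The proteasome activator genes Psme1 (ENSMUSG00000022216, chr14:55578123-55581529, plus strand) and Psme2 (ENSMUSG00000079197, chr14:55587441-55591113, minus strand) are 5911 bases apart. All 10 are protein coding, and 7 of them are on chromosome 17. The annotations of Psmb9 and Tap1 overlap by 212 bases, and the RefSeq start sites of this head-to-head pair are 226 bases apart. Because the heavy chain genes belong to a family of near-identical copies, reads shared between copies may be lost or divided in counting, and the values of H2-D1 and H2-K1 are uncertain to that extent.

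RefSeq (GRCm38.p6) gave the promoter, 250 bases before to 50 after the start, for 9 of the 10 genes, all but Tap2. Short stretches of 3 of them are shown because B2m, H2-D1 and H2-K1 carried most of the UMIs described below, and because the heavy chain stretches differ at 1 base. Capitals mark the letters GGGATTCCC and TTTCACTTC in the heavy chain stretches and GAAANNGAA in the B2m stretch.
H2-D1: gGGGATTCCCcatctcctcagTTTCACTTC
H2-K1: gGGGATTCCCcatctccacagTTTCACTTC
B2m: gaacatGAAACTGAAaatgggaaagtccct
The H2-D1 stretch is chr17:35262923-35262952 on the plus strand and begins 171 bases before the start. The H2-K1 stretch is chr17:34000429-34000458 on the minus strand and begins 111 bases before the start. The B2m stretch is chr2:122147542-122147571 on the plus strand and begins 145 bases before the start. Over their 30 bases the heavy chain stretches differ only at T18A, counted from 1 at the 5′ end with the H2-D1 base first. The letters were searched on both strands of the windows of 27025 genes and were chosen after reading the windows of these genes. GGGATTCCC stood in the windows of 0.414% of genes (among these, H2-D1 and H2-K1), TTTCACTTC in 0.596% (H2-D1 and H2-K1), GAAANNGAA in 9.76% (B2m and Psme1) and TTCNNNGAA in 9.55% (Psmb8). The capitals of the heavy chain stretches do not overlap each other. These matches describe letters and show no binding.

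Libraries shared cell barcodes. The 5022 barcode entries held 1365 different barcodes, of which 612 occurred in several libraries and 270 in all 9. Each pair of libraries shared 270 to 542 barcodes. A barcode was therefore assigned to the 1 library with its highest UMI total, which left out entries with 51.7% of all UMIs, and results with the libraries as deposited are given beside the calls and shares. After quality control 851 cells remained. Of these, 112 held at least as many UMIs of marker genes of other cell types as of myeloid genes and were left out. Among the cells left out, 71 were led by rod genes, and 12 of the 851 cells lay near the limit, with 40% to 60% of these marker UMIs from the myeloid list. The 739 retained cells numbered 257 at day 0, 284 at day 7 and 198 at day 20. Libraries held 17 to 193 retained cells with 20443 to 265207 UMIs, and day 7 replicate 3 (17 cells) and day 20 replicate 3 (31 cells) were the smallest. Sag, the arrestin gene deleted in these mice, had 11 UMIs over all barcodes and at most 2 in any library. Among the 20 defining myeloid markers, Csf1r had 1542, C1qa 7730 and Itgam 226 UMIs in the retained cells.

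All 10 genes were detected. Together they took 0.677% ± 0.0334 of the UMIs at day 0, 1.19% ± 0.136 at day 7 and 0.906% ± 0.0340 at day 20 (mean ± SD, n = 3 libraries), and the days did not overlap. B2m, H2-D1 and H2-K1 held 83.5% to 91.2% of these UMIs in every library. In single cells with at least 500 UMIs, the genes took a median of 0.634% of a cell's UMIs at day 0, 1.02% at day 7 and 0.819% at day 20. Only 5 of 211 such cells at day 0, 3 of 251 at day 7 and 5 of 150 at day 20 held 0 UMIs of all 10 genes. At an equal depth of 500 UMIs, a cell was expected to show 2.00 of the 10 genes at day 0, 2.34 at day 7 and 2.15 at day 20.

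Levels are given as CPM, the UMIs of a gene scaled to the total UMIs of the library's retained cells, and come from 3′ ends, so they are not divided by transcript length. B2m, the light chain, was at 3817, 3291 and 2812 CPM in the day 0 libraries. It was at 5264, 6344 and 6115 CPM at day 7 and at 4783, 5069 and 4694 CPM at day 20. All 6 libraries after light were above all 3 of day 0, as in 4.91% of the genes tested below. Day 20 lay between the other days without overlap, and 5.14% of genes had day 20 below all of day 7. H2-D1, a classical heavy chain, was at 1682, 2019.6 and 2085 CPM at day 0, 3182, 3305 and 4647 at day 7, and 2278, 2368 and 2848 at day 20. The 3 days stood in the same order, again without overlap. H2-K1, the other classical heavy chain, was at 587, 666 and 434 CPM at day 0, 879, 910.5 and 1419 at day 7, and 519, 661 and 501 at day 20. Its day 7 libraries were above all others, while day 20 lay within the range of day 0. Day 7 was above all of day 0 in 12.5% of the genes tested. The share of genes with all 3 days apart, or with day 7 above both other days, was not measured.

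**Figure D1:**
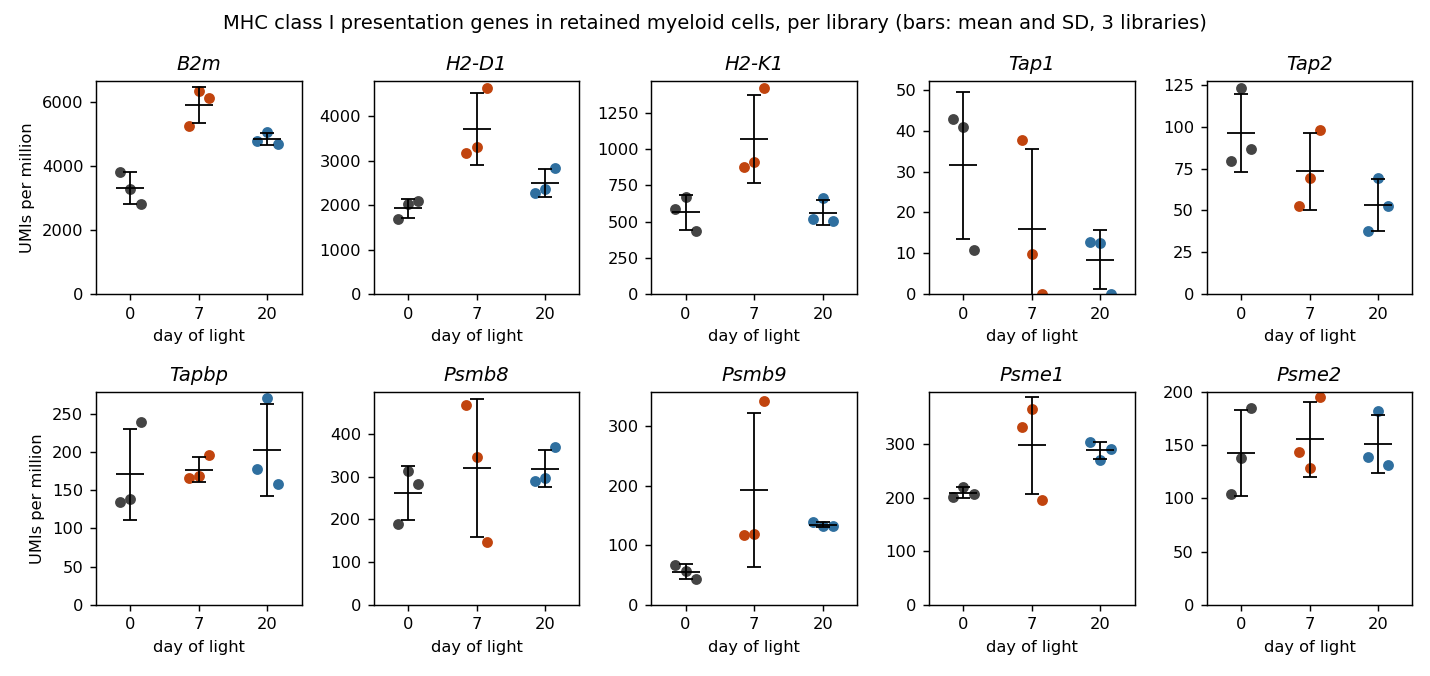
Level of each of the 10 genes in CPM (vertical axes, each from 0 with its own scale) against the day of light (horizontal axis). Points are libraries and bars the mean and SD of 3 libraries. B2m, H2-D1 and H2-K1 peak at day 7, with means of 5907, 3712 and 1069, and the points of Tap1 and Tap2 rest on few UMIs.

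Change was tested with edgeR's quasi-likelihood test over all genes with enough counts in one fit of the 9 libraries, with Benjamini-Hochberg adjustment at 0.05. Of the 10 genes, 8 passed the filter on low counts, and Tap1 and Tap2 did not. At day 7 compared with day 0, 26.7% of the 1343 genes tested were called, 10.3% as higher. B2m, H2-D1, H2-K1 and Psmb9 rose, 4 of the 8 genes tested, and none fell. The log2 fold change was 0.96 for B2m (SE 0.22, adjusted p = 0.00519), 1.06 for H2-D1 (SE 0.24, adjusted p = 0.00519) and 0.98 for H2-K1 (SE 0.29, adjusted p = 0.0237). In fold terms these 3 levels were 1.95, 2.09 and 1.98 times those of day 0. The same 4 genes had day 7 libraries above all of day 0, as did 12.5% of all genes tested. The median log2 fold change of the 8 genes was 0.85, against -0.06 over all genes tested.

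These calls rested on few libraries. DESeq2 also called 4 of the 8 genes, and 275 of all 1343. Without day 7 replicate 3 and day 20 replicate 3 edgeR called 6 of 9, and 615 of all 2359 genes tested. H2-D1 passed in all 9 fits that left out 1 library. B2m lost the call without day 0 replicate 3 (adjusted p = 0.0696) or day 7 replicate 2 (0.0586), and H2-K1 without day 0 replicate 1 (0.0734) or day 0 replicate 3 (0.111), with log2 fold changes of 0.86, 0.91, 0.98 and 0.85. With the libraries as deposited, every barcode kept in every library, 2.68% of 2612 genes were called and 0 of the 9 class I genes tested, with log2 fold changes of 0.49 for B2m (adjusted p = 0.123), 0.52 for H2-D1 (0.0891) and 0.42 for H2-K1 (0.144). Without the filter on low counts, over 13008 genes, 0 of the 10 were called.

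Psmb9, an inducible catalytic subunit of the immunoproteasome, was at 67.3, 56.4 and 43.4 CPM at day 0, 117, 119 and 342 at day 7, and 139, 132 and 132 at day 20. All 6 libraries after light were above day 0, as in 4.91% of the genes tested. The day 7 value of 342 CPM was 7 UMIs in day 7 replicate 3, and day 0 held 26 UMIs of Psmb9 in all. Its log2 fold change at day 7 was 1.45 (SE 0.45, adjusted p = 0.0275), the highest of the 8 genes tested. The call was lost without any one of the day 0 libraries, with adjusted p of 0.0591, 0.0877 and 0.0690 without replicates 1, 2 and 3, and with the libraries as deposited, where the log2 fold change was 0.48 (adjusted p = 0.208). Psmb8, the partner subunit encoded on the other side of Tap1, was at 189.6, 313 and 282 CPM at day 0, 468, 346 and 147 at day 7, and 291, 296 and 369 at day 20. The days overlapped, and the low day 7 value was 3 UMIs in day 7 replicate 3. Its log2 fold change at day 7 was 0.62 (SE 0.32, adjusted p = 0.161), and it passed in 1 of the 9 fits that left out 1 library, the one without day 7 replicate 3 (0.84, adjusted p = 0.0476).

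Psme1 and Psme2 encode the subunits of the proteasome activator PA28. Psme1 was at 202, 220.4 and 206 CPM at day 0, 332, 366 and 196 at day 7, and 304, 271 and 290.1 at day 20. All day 20 libraries and 2 of the 3 at day 7 were above day 0, and the third at day 7 held 4 UMIs. At day 7 its log2 fold change was 0.74 (SE 0.27, adjusted p = 0.0561), and it passed without day 7 replicate 3 (0.90, adjusted p = 0.0255). Psme2 was at 104, 138 and 185 CPM at day 0, 143, 129 and 196 at day 7, and 139, 183 and 132 at day 20. All 3 days overlapped, and the log2 fold change at day 7 was 0.19 (SE 0.37, adjusted p = 0.741).

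Tapbp encodes tapasin, which bridges the transporter and the empty heavy chain. It was at 135, 138 and 239 CPM at day 0, 166, 168 and 196 at day 7, and 177, 271 and 158 at day 20. The days overlapped, with a log2 fold change at day 7 of 0.17 (SE 0.36, adjusted p = 0.754). When libraries were scaled by their totals in place of TMM factors, the median of all genes moved by -0.21, and at day 7 Tapbp (-0.040) and Psme2 (-0.030) changed sign while the calls of H2-K1 (adjusted p = 0.0648) and Psmb9 (0.0549) were lost.

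Tap1 and Tap2 encode the subunits of the peptide transporter, which works as a pair of both. Tap1 had 16 UMIs at day 0, 11 at day 7 and 3 at day 20, and Tap2 had 45, 23 and 16. Tap1 was at 42.8, 41.0 and 10.9 CPM at day 0, 37.7, 9.90 and 0 at day 7, and 12.7, 12.6 and 0 at day 20. A count of 0 allows up to 147 CPM in day 7 replicate 3 and up to 79.1 CPM in day 20 replicate 3, counting error only. Tap2 was at 79.5, 123 and 86.9 CPM at day 0, 52.8, 69.3 and 97.8 at day 7, and 38.0, 69.3 and 52.7 at day 20, where all 3 libraries were below day 0, as in 14.1% of the genes tested. In a fit without the filter on low counts, the log2 fold change at day 20 was -1.53 for Tap1 (SE 1.01) and -0.74 for Tap2 (SE 0.61), both with an adjusted p of 0.810 in edgeR. A change of the transporter was not detectable at this depth.

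**Figure D2:**
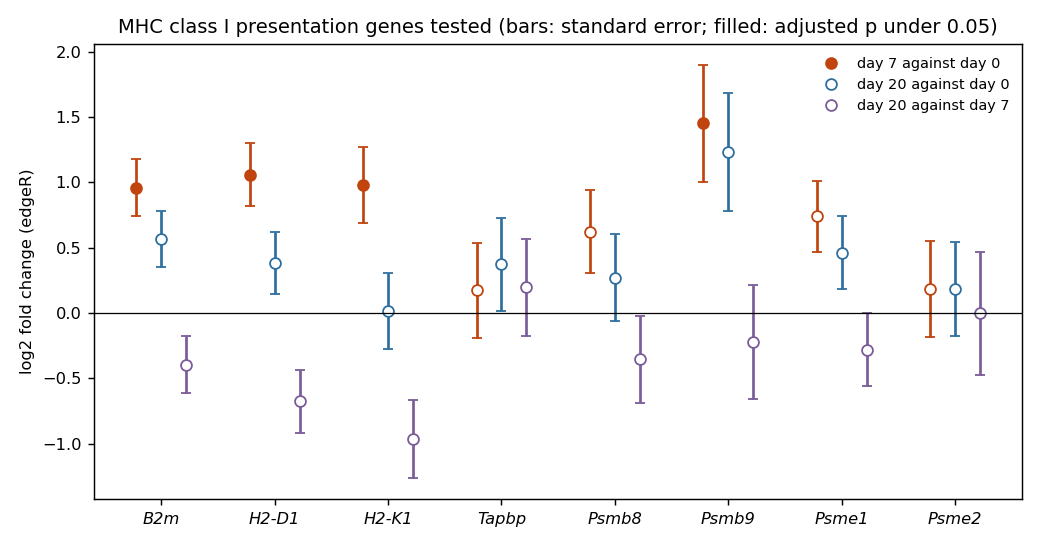
Log2 fold change (vertical axis) of the 8 genes tested by edgeR, in 3 comparisons of days. Bars are standard errors, and filled points passed an adjusted p of 0.05. The filled points are B2m, H2-D1, H2-K1 and Psmb9 at day 7 compared with day 0, from 0.96 to 1.45.

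At day 20 compared with day 0, 2.90% of genes were called, and none of the 8 class I genes was. DESeq2 called 0 as well, with 53 of all 1343 genes, and in edgeR 2 had an unadjusted p under 0.05. B2m, H2-D1, Psmb9 and Psme1 had all day 20 libraries above day 0, as did 12.4% of the genes tested. All 8 log2 fold changes were above 0, with a median of 0.38 against 0.01 over all genes. They were 0.57 for B2m (SE 0.22, adjusted p = 0.207), 1.23 for Psmb9 (SE 0.45, adjusted p = 0.187), 0.38 for H2-D1 (SE 0.24, adjusted p = 0.427) and 0.02 for H2-K1 (SE 0.29, adjusted p = 0.993). The sign of H2-K1 changed with library totals as the scale (-0.057). The other 4 genes lay between 0.18 and 0.46, with adjusted p from 0.423 to 0.826.

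At day 20 compared with day 7, 4.99% of genes were called and again none of the 8, with 2 at an unadjusted p under 0.05. DESeq2 called 0 of the 8 and 58 of all 1343 genes. B2m, H2-D1 and H2-K1 had all day 20 libraries below all of day 7, as did 5.14% of the genes tested. The log2 fold change was -0.97 for H2-K1 (SE 0.30, adjusted p = 0.0809), -0.68 for H2-D1 (SE 0.24, adjusted p = 0.143) and -0.39 for B2m (SE 0.22, adjusted p = 0.379). The other 5 genes lay between -0.35 and 0.20, with adjusted p from 0.644 to 0.999. The comparisons of days share libraries and are not independent of each other.

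For the mean of days 7 and 20 compared with day 0, 19.8% of genes were called, 5.44% as higher. B2m, H2-D1 and Psmb9 rose, 3 of the 8. DESeq2 called 199 of all 1343 genes, among them B2m and H2-D1 but not Psmb9 (1.38, adjusted p = 0.0552). The log2 fold change was 0.76 for B2m (SE 0.19, adjusted p = 0.0117), 0.72 for H2-D1 (SE 0.21, adjusted p = 0.0272) and 1.34 for Psmb9 (SE 0.39, adjusted p = 0.0277). Psme1 was at 0.60 (SE 0.24, adjusted p = 0.0880) and H2-K1 at 0.50 (SE 0.25, adjusted p = 0.174), and the other 3 lay between 0.19 and 0.45. With 1 library left out, B2m passed in 5 of 9 fits, H2-D1 in 4 and Psmb9 in 6. None of the 3 passed without day 0 replicate 2, where adjusted p was 0.0796, 0.111 and 0.111, or without day 0 replicate 3, where it was 0.140, 0.0904 and 0.0768. B2m and H2-D1 did not pass without day 7 replicate 2 (0.0563 and 0.0528) or day 20 replicate 1 (0.0604 and 0.0667), and H2-D1 and Psmb9 not without day 0 replicate 1 (0.175 and 0.0678). H2-D1 also lost the call with library totals as the scale (0.58, adjusted p = 0.0652), and B2m (0.0796) and H2-D1 (0.0647) with non-myeloid cells kept. With the libraries as deposited 0 of 9 were called, with 2.11% of all genes, and the log2 fold changes were 0.39 for B2m (adjusted p = 0.192), 0.36 for H2-D1 (0.199) and 0.51 for Psmb9 (0.192). Without the filter on low counts 0 were called.

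The make-up of the sorted cells moved with light. The 20 myeloid marker genes that defined the retained cells summed to 99673 to 107662 CPM at day 0. They summed to 50478 to 59189 CPM at day 7 and 82506 to 93966 CPM at day 20. The 4 MHC class II genes Cd74, H2-Aa, H2-Ab1 and H2-Eb1 summed to 655 to 2096 CPM at day 0, 10144 to 40405 at day 7 and 5932 to 14717 at day 20. The 10 microglial marker genes summed to 13595 to 15691, 4035 to 4402 and 8598 to 10623 CPM, and 10 monocyte and macrophage genes to 1164 to 1603, 5772 to 10936 and 2916 to 5802 CPM. Lyz2, which activated microglia also make, held 4200 of the 5134 UMIs of the monocyte list. Ms4a7 had 326, Adgre1 224, Lgals3 195, Cybb 109, Plac8 36, Ccr2 19, Itga4 10, Ly6c2 9 and Mrc1 6. Without Lyz2 the list summed to 195 to 249.8 CPM at day 0, 1467 to 1640.2 at day 7 and 592 to 987 at day 20. The 10 rod genes summed to 1020 to 5994 CPM at day 0 and 170 to 898 CPM in the libraries after light. The 9 lymphocyte genes in the tables summed to 12.2 to 205 CPM at day 0, 59.4 to 636 at day 7 and 26.4 to 233 at day 20. The value of 636 CPM was 13 UMIs in day 7 replicate 3. Single lymphocyte genes had from 3 UMIs (Klrb1c) to 45 (Nkg7), with 12 of Cd3e and 10 of Cd79a. The part of these shifts in the class I changes was not tested. The class II classes described below do not separate microglia from monocyte-derived cells. In the paper's lineage tracing at day 20, MHCII protein was detected on most but not all monocyte-derived cells and on a minority of resident cells. The paper treats this staining as useful for screening but not as proof of lineage.

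Cell by cell, the share of cells expected to hold a UMI after thinning to 500 UMIs was compared between day 0 and the 6 libraries after light. It used 612 of the 739 retained cells, those with enough UMIs. Libraries held 12 to 171 such cells, with 12 in day 7 replicate 3 and 26 in day 20 replicate 3, and each library counted equally. The third value listed for each day is replicate 3. H2-D1 was seen in 49.2%, 54.1% and 47.0% of cells at day 0, 68.3%, 70.3% and 80.8% at day 7 and 61.2%, 58.7% and 65.6% at day 20. The difference between light and day 0 was 17.4 percentage points, and all 6 libraries after light were above day 0 (two-sided exact permutation p = 0.0238). Psmb9 was seen in 2.63%, 2.70% and 2.69% of cells at day 0, 3.76%, 4.68% and 6.77% at day 7 and 5.55%, 6.66% and 7.88% at day 20. Its difference was 3.21 points, again with all 6 libraries above day 0 (exact permutation p = 0.0238). Shares were compared for the class I genes only, so how often other genes separate like H2-D1 and Psmb9 was not measured. B2m was seen in 81.7%, 77.0% and 78.3% of cells at day 0, 84.1%, 91.2% and 88.3% at day 7 and 82.7%, 82.6% and 78.9% at day 20, with 5 of the 6 libraries above day 0 and a difference of 5.61 points (exact permutation p = 0.0476). H2-K1 was seen in 18.5%, 22.7% and 14.9% at day 0, 28.3%, 27.4% and 32.0% at day 7 and 21.9%, 21.6% and 18.7% at day 20, with the day 7 libraries above all others and a difference of 6.29 points (exact permutation p = 0.143).

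Tap1 went the other way, from a mean of 1.74% of cells at day 0 to means of 0.591% (day 7) and 0.430% (day 20; exact permutation p = 0.0476), as did Tap2, from 4.18% to 3.40% and 2.11% (exact permutation p = 0.119). For the other 4 genes the difference between light and day 0 lay between -2.00 and 0.774 points. With 3 libraries against 6 the smallest two-sided p of this test is 0.0238, which H2-D1 and Psmb9 reached. Genes at this limit cannot pass adjustment for the 10 tests unless several reach it, and none of the 10 differences passed. With the libraries as deposited the differences were smaller, at 4.47 points for H2-D1, 0.398 for Psmb9, 1.22 for B2m, 1.50 for H2-K1, -0.52 for Tap1 and -0.89 for Tap2. Shares without thinning were also taken over retained cells with at least 500 UMIs. At day 0, day 7 and day 20 they were 73.0%, 86.1% and 77.3% for H2-D1 and 93.4%, 94.4% and 91.3% for B2m. For Psmb9 they were 9.48%, 13.1% and 14.0%. These shares depend on depth, and the median depth of the cells was 1196, 1135 and 936 UMIs at the 3 days.

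**Figure D3:**
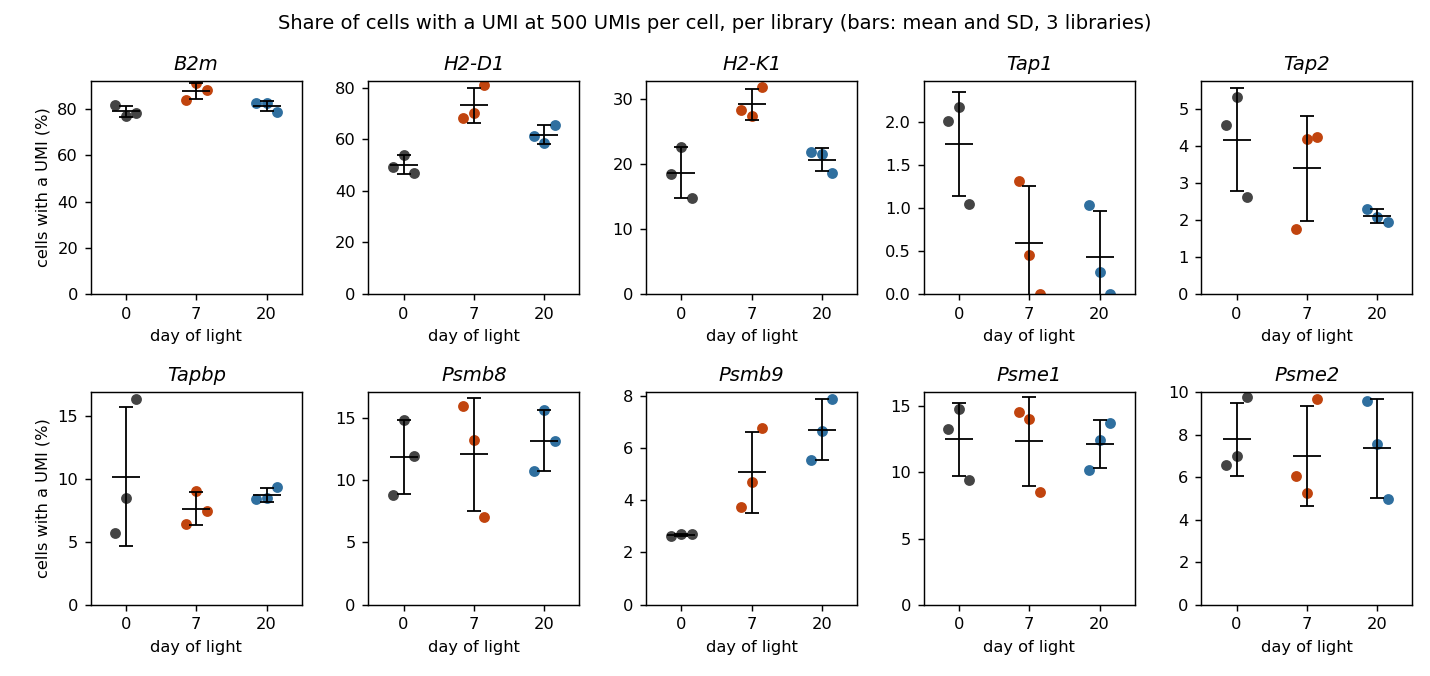
Share of cells with a UMI at 500 UMIs per cell, in percent (vertical axes, each from 0 with its own scale), for each of the 10 genes against the day of light. Points are libraries and bars the mean and SD of 3 libraries. For H2-D1 and Psmb9 all 6 libraries after light are above the 3 of day 0, while Tap1 lies under 2.2% in every library. Only these 10 genes were compared in this way.

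Free RNA can put UMIs into cells that do not express a gene, and the 60 left-out rod-led cells with at least 500 UMIs served as a background. These cells were pooled over days, so the background of single days was not measured, and RNA made by the rods themselves would count toward it. At 500 UMIs, B2m was seen in 13.2% of these cells and in 82.7% of the retained cells, H2-D1 in 18.5% and 60.9%, H2-K1 in 4.43% and 23.5%, and Psmb9 in 0.423% and 4.22%. For these shares the retained cells were also those with at least 500 UMIs. Their median depth was 1071 UMIs, against 1347 in the rod-led cells. Without thinning, B2m was in 33.3% of the rod-led and 93.3% of the retained cells, and H2-D1 in 41.7% and 79.4%. All 71 rod-led cells together held fewer UMIs of B2m (33) than of H2-D1 (37), whereas all 739 retained cells held 5048 and 2798. Tapbp was in 4.07% of rod-led and 8.26% of retained cells at 500 UMIs. Without thinning, Tap1 was in 0 of the 60 rod-led cells, which allows a share of up to 5%, and in 4.74% of the retained cells, with 0% to 9.46% in single libraries.

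Cells were also split by MHC class II transcripts, which present peptides of engulfed proteins to CD4 T cells. Cells with 0 UMIs of the 4 class II genes after thinning to 500 UMIs were called MHCII-negative, and those with at least 2 MHCII-positive. At day 0, 185 of 211 cells were MHCII-negative and 8 MHCII-positive. The numbers were 55 and 136 of 251 at day 7, and 60 and 48 of 150 at day 20. Cells of a class were summed per library.

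In MHCII-negative cells, B2m was at 3862, 3255 and 2841 CPM at day 0, at 5281, 4701 and 5069 at day 7 and at 4457, 5194 and 5954 at day 20. All 6 libraries after light were above day 0, as in 11.7% of the 557 genes tested in these cells. H2-D1 was at 1759, 1908 and 2122 CPM at day 0, 3489, 3331 and 2645 at day 7 and 1694, 2525 and 2675 at day 20, where the lowest library fell below day 0. H2-K1 was at 625, 640.0 and 434 CPM at day 0 and between 173 and 806 CPM after light, so that the groups overlapped. The libraries after light held 4 to 36 MHCII-negative cells each. The lowest value after light was 19 UMIs in 13 cells for H2-D1 and 2 UMIs in 11 cells for H2-K1. Between light and day 0 in MHCII-negative cells, 27.5% of 557 genes were called, and 0 of the 5 class I genes tested, none of them at an unadjusted p under 0.05 and none by DESeq2. The log2 fold change was 0.41 for B2m (SE 0.21, adjusted p = 0.159), 0.31 for H2-D1 (SE 0.22, adjusted p = 0.280) and -0.24 for H2-K1 (SE 0.35, adjusted p = 0.588).

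MHCII-positive and MHCII-negative cells were compared within the 4 libraries after light that held at least 10 cells of both classes, replicates 1 and 2 of days 7 and 20. B2m in MHCII-positive cells was at 5138 and 7260 CPM at day 7 and 4253 and 4643 at day 20, higher than in the MHCII-negative cells in 1 of the 4 libraries, day 7 replicate 2. H2-K1 in MHCII-positive cells was at 965 and 1026 CPM at day 7 and 552 and 645 at day 20, against 503, 806, 357 and 684 CPM in MHCII-negative cells of the same libraries, and so was higher in 3 of 4. With library as a block, 3.84% of 417 genes were called and 0 of the 5 class I genes tested, with 0 by DESeq2 and 1 at an unadjusted p under 0.05. That gene was Psme1, with a log2 fold change of 0.87 (SE 0.37, adjusted p = 0.235). It was 0.54 for H2-K1 (SE 0.27, adjusted p = 0.327), 0.23 for B2m (SE 0.16, adjusted p = 0.629; 0.025 without day 7 replicate 2) and 0.11 for H2-D1 (SE 0.16, adjusted p = 0.862).

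**Figure D4:**
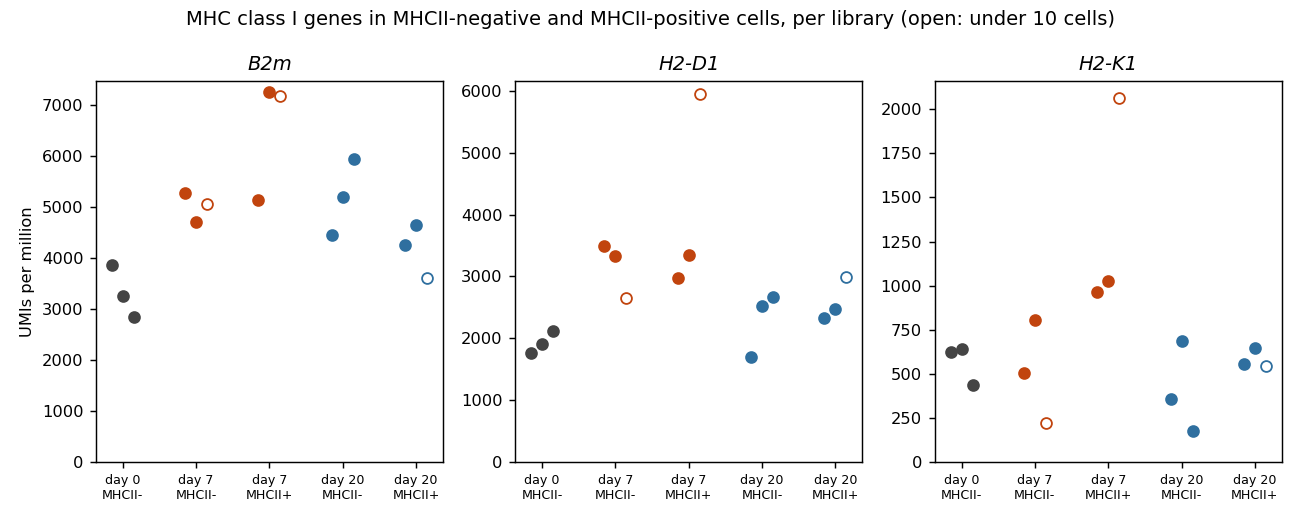
Level of B2m, H2-D1 and H2-K1 in CPM (vertical axes from 0) in MHCII-negative (MHCII-) and MHCII-positive (MHCII+) cells of each day. Points are libraries, open where the class held under 10 cells, and MHCII-positive cells of day 0 are not drawn since they numbered 8. In MHCII-negative cells B2m is above every day 0 library in all 6 libraries after light, as in 11.7% of the genes tested there.

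The wider class I pathway was described with a list of 35 other genes, among them nonclassical heavy chains, chaperones of peptide loading, standard proteasome subunits and transcription factors of the pathway. Of these, 33 were in the tables, 2 had 0 UMIs and 9 passed the filter on low counts. Between light and day 0, 1 of the 9 was called, against 19.8% of all genes, and the median log2 fold change was 0.12 against -0.03. The gene called was Hspa5, which encodes the endoplasmic reticulum chaperone BiP and fell. Hspa5 was at 759, 723 and 934 CPM at day 0, 305, 129 and 538 at day 7 and 266, 542 and 369 at day 20. The log2 fold change of Hspa5 was -1.18 (SE 0.33, adjusted p = 0.0198). It lost the call without day 0 replicate 3 (-1.04, adjusted p = 0.0732) or day 7 replicate 2 (-0.94, adjusted p = 0.0525), with non-myeloid cells kept (-0.97, 0.130), without the filter on low counts (-1.16, 0.0688) and with the libraries as deposited (-0.24, 0.498). H2-T23, the nonclassical heavy chain Qa-1, was at 171, 205 and 174 CPM at day 0 and 275, 218 and 538 at day 7. At day 20 it was at 177, 214 and 132, and the day 7 value of 538 CPM was 11 UMIs. Its log2 fold change at day 7 was 0.82 (SE 0.35, adjusted p = 0.0941), and it was not called. Of the 9 genes, 3 had a log2 fold change above 0 at day 7. At day 7 Hspa5 was again the 1 gene of the list called (-1.39, SE 0.41, adjusted p = 0.0234). At day 20, 0 of the 9 were called compared with day 0, with 1 at an unadjusted p under 0.05, and 0 compared with day 7, with 2, and DESeq2 called 0 in both. The other 7 genes tested, Calr, Canx, Pdia3, Pomp, Psmb6, Psmb7 and Psmb10, were not called in any of these comparisons.

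Outside both lists, the 5 genes whose log2 CPM followed the mean of the 8 class I genes most closely over the 9 libraries were Aldh2 (Pearson's r = 0.93), Ndufc2 (0.93), Apoc1 (0.93), H2-Aa (0.92) and Naca (0.92). All values of a library share its cells and depth, and the coefficients describe these 9 libraries. H2-Aa, a class II chain, was at 107 ± 18.4, 3164 ± 1395 and 1603 ± 667 CPM at day 0, 7 and 20 (mean ± SD, n = 3 libraries). Naca, a chaperone of newly made proteins, was at 624 ± 25.7, 1172 ± 6.46 and 892 ± 157 CPM. Aldh2, the mitochondrial aldehyde dehydrogenase, was at 43.8 ± 7.28, 115 ± 27.9 and 105 ± 9.75 CPM.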

How the data were processed

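Raw UMI counts per gene and barcode were deposited by the authors for 9 libraries (10x Genomics 3′ version 2 chemistry; Cell Ranger and mm10 per the labels; versions are not given in the sources used here), without normalization. Each barcode was kept in the library where its UMI total was highest. Cells needed 200 or more detected genes and a mitochondrial share of UMIs under 10%, and were retained where myeloid marker UMIs outnumbered those of other cell types; doublets were not called. Counts were summed per library and tested with edgeR 4.0.16 in R 4.3.3 (TMM, filterByExpr, quasi-likelihood), tested on simulated data, with DESeq2 1.42.0 as an alternative. Shares of cells used the hypergeometric expectation at 500 UMIs. The genes, marker lists and pathway list were chosen with earlier results of these data known. Named were the 10 genes, the pathway genes that passed the filter on low counts, and the 5 genes with the most similar pattern of log2(CPM + 1). The treatment labels give time in days and the titles give the same numbers in hours; days were used. Alternatives: barcodes as deposited, non-myeloid cells kept, 100 detected genes, library totals, no filter on low counts, replicate block, and each library left out. Intervals and limits cover counting error only.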

Additional observations from a re-analysis of the deposited data

How the results depend on the processing

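At day 7 compared with day 0, the 4 class I genes called became 0 with the libraries as deposited, 2 with non-myeloid cells kept, 2 with library totals only, 0 without a filter on low counts and 0 with barcodes listed in 1 library only, where 2 of the genes could be tested. Leaving out 1 library gave 1 to 6. For both days of light the 3 genes called became 0 as deposited, 1 with non-myeloid cells kept, 0 without the filter and 0 with barcodes of 1 library, and 0 to 4 with 1 library left out. Of the other pathway genes, 1 of 9 tested was called, against 0 of 17 as deposited and 0 of 14 with non-myeloid cells kept. The count was 4 of 17 without the smallest libraries of days 7 and 20. With 1 library left out it was 1 to 2, over 10 to 17 genes tested. With barcodes of 1 library, 0 of the pathway genes could be tested, so none could be called. The settings with barcodes of 1 library and without the smallest libraries were chosen after seeing the data. The causes were not tested. The fit without a filter adjusted over 13008 genes in place of 1343 and called 263 of them at day 7. Whether the larger number of genes lost the class I calls was not tested. The sign changed with library totals for Tapbp (-0.040) and Psme2 (-0.030) at day 7 and for H2-K1 at day 20 compared with day 0 (-0.057), where it also changed with DESeq2 (-0.038), and for H2-D1 at day 20 with barcodes of 1 library (-0.071). With 1 library left out, these values ranged from -0.0025 to 0.50 for Tapbp, -0.034 to 0.43 for Psme2 and -0.14 to 0.15 for H2-K1. For H2-K1 in MHCII-negative cells the sign changed with at most 1 class II UMI allowed (0.19) and without the smallest libraries (0.036). Over 510 such values of single genes, 443 kept direction and call, 50 lost the call, 6 gained it and 11 changed sign. Most of the 510 values came from results not called in the main setting, which had no call to lose. Over all genes, calls at day 7 numbered 359 of 1343 tested, against 70 of 2612 as deposited and 183 of 2103 with non-myeloid cells kept. They numbered 615 of 2359 without the smallest libraries and 7 of 183 with barcodes of 1 library. With 1 library left out they numbered 188 to 535, over 1503 to 2120 genes tested. At day 20 compared with day 0 they numbered 39, against 1 as deposited, 0 with barcodes of 1 library and 24 to 53 with 1 library left out. At day 20 compared with day 7 they numbered 67, against 0, 1 and 14 to 99, and 12 with non-myeloid cells kept. For both days they numbered 266, against 55, 7 and 167 to 448, 156 with non-myeloid cells kept and 513 without the smallest libraries. Each setting tested the same number of genes in every comparison of days, so counts from different settings rest on different numbers of genes. Whether same-numbered libraries are paired is not known. Their deviations from the day means correlated between -0.065 and 0.141, which with 3 libraries per day cannot show that no pairing exists. Replicate 3 had the fewest retained cells on each day (56, 17 and 31). With the replicate block 4 class I genes were called at day 7, 3 for both days and 1 pathway gene, the main counts. Depth limits Tap1 and Tap2 most, with 30 and 84 UMIs in all retained cells.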
